A study of Mus musculus with 18 samples.

Results

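The BCL2 family apoptosis genes were followed as 10 genes, Bax, Bak1, Bcl2, Bcl2l1, Bcl2l2, Bcl2l11, Mcl1, Bid, Bik and Bbc3, found by their NCBI gene numbers among the 22657 genes of the table. All 10 were listed and all 10 passed the filter on low values (at least 1 FPKM in at least 3 samples), so no member is missing from the tests. FPKM, the fragments of a gene scaled by its length and by the size of the library, was measured by RNA-seq in 18 libraries of whole cultured testes from ICR mice, an outbred stock, with 3 libraries in each of 6 groups. Testes of age-matched mice that had received no busulfan were cultured for 48 h with 0 (A0), 10 (A10) or 50 (A50) μg/mL of alginate oligosaccharides (AOS, short sugar chains from brown seaweed alginate). Testes of mice injected at 3 weeks of age with busulfan, an alkylating drug, at 40 μg per g body weight and collected 2 weeks later were cultured with the same amounts (B0, BA10 and BA50). The medium held 10% fetal bovine serum in every group. The study's design text gives the AOS amounts per kg body weight, whereas the labels give them per mL of medium, and the latter unit is used here. The methods give 6 testes per treatment and 3 repeats, but no source says whether a library holds 1 testis or a pool, so p-values measure the spread between these libraries, which may be technical.

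BCL2 family proteins set whether the outer mitochondrial membrane holds or opens. The guardians (Bcl2, Bcl-xL from Bcl2l1, Bcl-w from Bcl2l2, and Mcl1) bind and restrain the effectors Bax and Bak1, which can form pores that release cytochrome c and lead to caspase activation. BH3-only proteins (Bim from Bcl2l11, Bid, Bik and Puma from Bbc3) respond to stress and either occupy the guardians or engage the effectors. In the testis, the balance between Bax and the guardians is known for its part in the early wave of germ cell death, and Bcl2l2 is needed for adult spermatogenesis in mice.

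3 of the 10 members were called higher after busulfan when the difference was averaged over the AOS amounts, namely Bax, Bcl2l2 and Mcl1. They stand beside 13.3% of 15790 genes called higher and 24.8% called lower (limma, adjusted p under 0.05). The call of Mcl1 was lost under some other fits, given further on. The 250 bases before the annotated starts of these members are shown because they were the members called in that difference. The sequences are from RefSeq (GRCm38.p6), are written 5′ to 3′ along the gene's strand, and have the letters of the motifs searched in capitals. Bax lies at chr7:45466899-45467148 on the minus strand, Bcl2l2 at chr14:54883175-54883424 on the plus strand and Mcl1 at chr3:95658471-95658720 on the plus strand.
Bax: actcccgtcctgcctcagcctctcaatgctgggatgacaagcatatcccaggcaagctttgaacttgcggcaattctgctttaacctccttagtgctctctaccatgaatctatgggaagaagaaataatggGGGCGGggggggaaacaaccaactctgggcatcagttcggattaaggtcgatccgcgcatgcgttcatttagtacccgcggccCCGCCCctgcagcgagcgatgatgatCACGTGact
Bcl2l2: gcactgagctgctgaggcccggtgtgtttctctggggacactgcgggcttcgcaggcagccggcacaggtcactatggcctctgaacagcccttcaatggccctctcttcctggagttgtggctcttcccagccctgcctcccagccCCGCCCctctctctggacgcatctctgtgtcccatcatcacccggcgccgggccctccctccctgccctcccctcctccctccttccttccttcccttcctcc
Mcl1: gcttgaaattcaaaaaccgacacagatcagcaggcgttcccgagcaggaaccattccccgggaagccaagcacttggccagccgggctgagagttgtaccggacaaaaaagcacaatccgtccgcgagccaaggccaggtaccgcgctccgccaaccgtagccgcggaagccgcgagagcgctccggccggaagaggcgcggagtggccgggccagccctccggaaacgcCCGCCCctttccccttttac
Both strands were searched for the GC box, spelled GGGCGG, for the E-box, which reads CACGTG, for the CCAAT box and the TATA box (the letters CCAAT, and for the latter TATAAA), and by its name for the p53 site. The Bax window held 2 GC boxes and 1 E-box, and the windows of Bcl2l2 and Mcl1 held 1 GC box each. Members not called in the averaged difference held GC boxes too. The Bcl2 window had 7, that of Bid 3, those of Bcl2l11 3 and 2, and those of Bbc3 5, 1 and 7. The windows of Bak1 and Bcl2l1 had none, and an E-box also stood in a Bbc3 window. Of 32851 mouse promoter windows of this length, 32.7% held a GC box, 33.8% a CCAAT box, 6.02% an E-box, 12.4% a TATA box and 0.0639% a p53 site. Windows were found for 9 of the 10 members, 14 windows in all, and none of these 14 held the letters of the p53 site.

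The order of the members was nearly fixed across conditions. Mcl1 had the highest FPKM of the 10 in all 18 samples, followed in every sample by Bax, Bcl2l1, Bcl2l2 and Bak1. Thus 3 of the 4 guardians and both effectors lay above the BH3-only genes among the 10 in these length-scaled values. The remaining guardian, Bcl2, the founding member, was lowest of the 10 in 14 samples and ranged from 0.49 to 1.24 FPKM. In A0, the means were 79.9 FPKM for Mcl1, 57.3 for Bax, 40.8 for Bcl2l1, 26.0 for Bcl2l2, 20.6 for Bak1, 7.59 for Bcl2l11, 4.66 for Bid, 3.62 for Bik, 3.52 for Bbc3 and 1.11 for Bcl2. Only the neighbours Bid and Bik, and Bik and Bbc3, overlapped in their A0 values. More neighbours overlapped in other groups: Bax and Bcl2l1 in A10 and A50, Bcl2l2 and Bak1, Bcl2l11 and Bbc3, and Bik and Bcl2 in A10, and Mcl1 and Bax, and Bid and Bcl2 in BA50. Among the BH3-only genes, Bid overlapped Bik in A10, BA10 and BA50 and Bbc3 in A50 and B0.

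**Figure D1:**
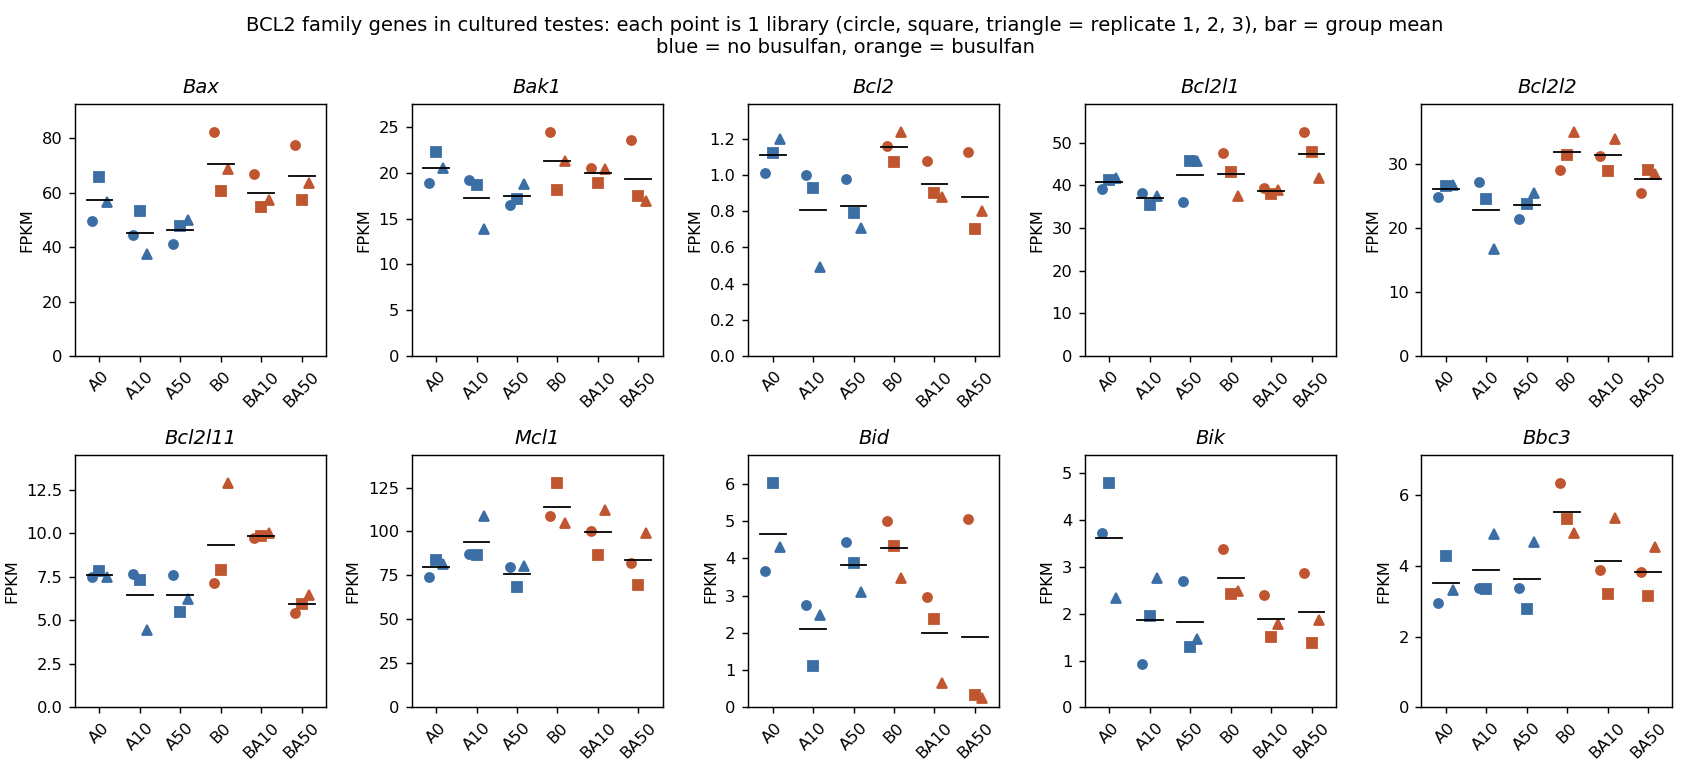
FPKM (y axis, from 0, a separate scale for each gene) of the 10 BCL2 family genes in each library, by group on the x axis; points are libraries and bars group means (n = 3). Bax in the 9 busulfan libraries lay between 54.9 and 82.5 FPKM against 37.5 to 65.8 in the 9 without busulfan, and Bid was under 1 FPKM in 3 libraries.

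One library stood apart from its group. In A10, replicate 3 correlated with the other replicates at Pearson's r of 0.929 and 0.941 across genes, against 0.985 between replicates 1 and 2, and its summed Sertoli marker level was the lowest of all (1102 FPKM). Markers of meiotic germ cells separated the busulfan groups from the others, with the sum of 14 spermatocyte markers at 426.5 to 638.5 FPKM without busulfan and 84.7 to 209.3 with it, and 11 of 13 tested fell in the averaged difference. Of 13 spermatogonium markers tested, 9 fell and 1 rose. Spermatid markers did not fall (0 of 14 called lower, 1 higher). Of all genes, 13.3% were called higher and 24.8% lower in this averaged difference, the background for each marker list. Markers of Sertoli (2 of 11 higher), Leydig (2 of 8), endothelial (3 of 6) and fat cells (7 of 7) and of simple epithelium (3 higher and 1 lower of 6) included called genes, while those of myoid cells, macrophages and red blood cells did not. The fat marker sum was 206.9 to 888.4 FPKM in B0 and 42.5 to 138.1 in the other groups, and the epithelial sum 81.4 to 215.7 in B0 and 17.8 to 48.9 elsewhere. Their part in the results on the members was not tested. In whole-tissue RNA, fewer cells of a type and less RNA per cell cannot be told apart.

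The first question was whether busulfan changed the family in the absence of AOS, comparing B0 with A0. Mcl1, a guardian with a short-lived protein, rose. Its FPKM was 74.2, 83.7 and 81.7 in A0 and 108.8, 127.5 and 104.9 in B0, so that the groups did not overlap. The log2 change was 0.50 (SE 0.14, n = 3 per group, limma, adjusted p = 0.0251). It was the 1 member called of 10, where 1.47% of 15790 genes were called higher and 12.3% lower. The call was lost without A0 replicate 1 (adjusted p = 0.108), A0 replicate 3 (0.0642), B0 replicate 1 (0.0511) or B0 replicate 2 (0.105).

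Bbc3, the p53-inducible BH3-only gene, was 2.96, 4.28 and 3.31 FPKM in A0 and 6.33, 5.32 and 4.91 in B0. These groups also did not overlap, and the log2 difference of 0.53 (SE 0.19) had an adjusted p of 0.0845. Bbc3 was called after quantile normalization (0.66, limma, adjusted p = 0.045), which called 479 of 15790 genes higher, against 232 in the values as deposited. With single libraries left out, its adjusted p (limma) ranged from 0.0582 to 0.282. Bcl2l2 was 24.9, 26.5 and 26.7 FPKM in A0 and 29.0, 31.4 and 35.0 in B0, again without overlap, with a log2 difference of 0.28 (SE 0.14, limma, adjusted p = 0.249). Members with B0 above A0 in every sample thus numbered 3 of 10, where 10.5% of all genes lay apart in that direction and 22.7% in the other.

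The effectors overlapped between B0 and A0. Bax was 49.6, 65.8 and 56.5 FPKM in A0 and 82.5, 60.8 and 68.9 in B0 (log2 difference 0.30, SE 0.16, limma, adjusted p = 0.276). Bak1, its partner effector, differed by 0.04 (95% interval −0.26 to 0.35). The remaining members had log2 differences of 0.03 for Bcl2, 0.06 for Bcl2l1, 0.22 for Bcl2l11, −0.09 for Bid and −0.27 for Bik.

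With 10 μg/mL AOS in the medium, the member that passed the test between BA10 and A10 was Bcl2l2. It was 27.2, 24.6 and 16.7 FPKM in A10 and 31.2, 29.0 and 33.9 in BA10. The groups did not overlap, and A10 replicate 3, the library that stood apart, was the lowest. The log2 change was 0.47 (SE 0.14, limma, adjusted p = 0.0304), and without A10 replicate 3 the value was 0.27 (adjusted p = 0.111). It was 1 of 10 members, beside 3.74% of all genes called higher and 15.2% lower. The call was also lost without BA10 replicate 1 (adjusted p = 0.0793) or BA10 replicate 3 (0.106), and when only these 2 groups were fitted (0.236).

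Bcl2l11, encoding the BH3-only protein Bim, was 7.68, 7.30 and 4.44 FPKM in A10 and 9.71, 9.81 and 10.0 in BA10. The log2 difference of 0.57 (SE 0.19) had an adjusted p of 0.0526, and the groups did not overlap. With Bax and Bcl2l2 it made 3 of 10 members that lay apart and higher, where 11.0% of all genes did and 20.2% lay apart and lower. It passed the threshold without A10 replicate 1 (0.0304), A10 replicate 2 (0.048), B0 replicate 1 (0.0462) or B0 replicate 3 (0.0188). With each library left out in turn, the log2 difference of Bcl2l11 ranged from 0.35 to 0.69 and its adjusted p (limma) from 0.0188 to 0.233. Bax was 44.7, 53.3 and 37.5 FPKM in A10 and 67.0, 54.9 and 57.5 in BA10, with a log2 difference of 0.41 (SE 0.16, adjusted p = 0.0868). With single libraries left out, it ranged from 0.28 to 0.53 and its adjusted p (limma) from 0.0408, without A10 replicate 2, to 0.306. Mcl1, the gene called in B0 against A0, overlapped here with a log2 difference of 0.08 (95% interval −0.22 to 0.38). The other log2 differences ran from −0.11 for Bid to 0.21 for Bak1.

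With 50 μg/mL AOS, the effector Bax was the member that rose between BA50 and A50. It was 41.1, 47.8 and 50.1 FPKM in A50 and 77.7, 57.3 and 63.8 in BA50, all above the A50 values. It was the 1 member that lay apart, where 16.0% of all genes lay apart and higher and 25.7% apart and lower. The log2 change was 0.50 (SE 0.16, limma, adjusted p = 0.0375), again 1 of 10 members, where 3.7% of all genes were called higher and 16.2% lower. Many settings ended this call: without A0 replicate 3 the adjusted p was 0.0504, without A50 replicates 1, 2 or 3 it was 0.148, 0.0775 or 0.0522, without BA50 replicates 1 or 3 it was 0.149 or 0.0691, and in the fit with the replicate number as a block it was 0.0552. Bid had the lowest estimate (−1.14, SE 0.48, adjusted p = 0.115) and is described further on. The other 8 members had log2 differences between −0.09 (Bcl2l11) and 0.22 (Bcl2l2).

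**Figure D2:**
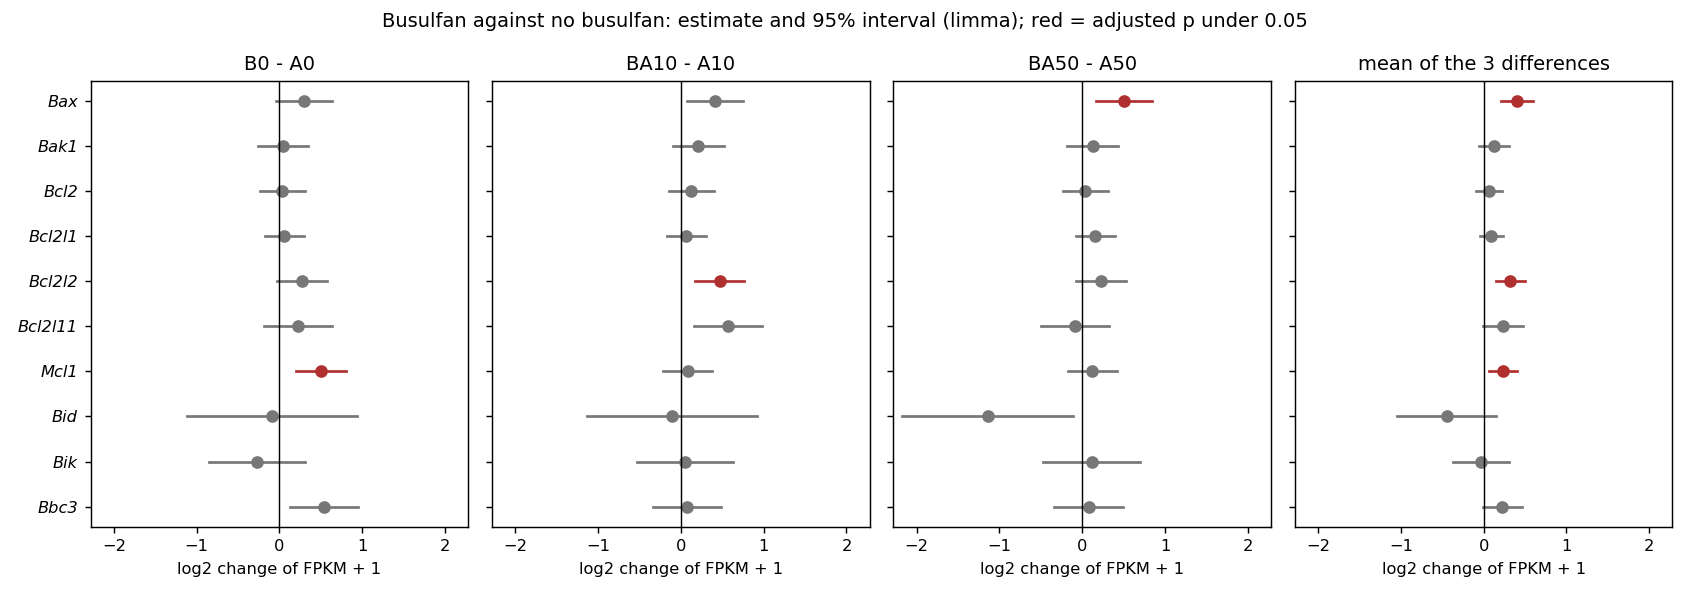
Log2 change of FPKM + 1 (x axis) of each member (y axis) for busulfan against no busulfan at each AOS amount and averaged; points are estimates, lines 95% intervals, red marks adjusted p under 0.05. The 3 called members in the averaged difference were Bax (0.40), Bcl2l2 (0.32) and Mcl1 (0.24).

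Each single comparison rests on 3 libraries a side, so the busulfan difference was also averaged over the 3 AOS amounts, which uses all 18 libraries. Bax rose by 0.40 on the log2 scale, 1.32-fold (SE 0.09, limma, adjusted p = 0.00289), from a mean of 49.6 FPKM ± 8.45 (SD, n = 9) to 65.6 ± 9.48. Bcl2l2 rose by 0.32, or 1.25-fold (SE 0.08, limma, adjusted p = 0.00576), from 24.1 FPKM ± 3.31 (SD, n = 9) to 30.3 ± 2.95. Mcl1 rose by 0.24, or 1.18-fold (SE 0.08, limma, adjusted p = 0.0318), from 83.4 FPKM ± 11.1 (SD, n = 9) to 99.0 ± 17.4. An effector and a pair of guardians were thus the members that passed, and their values overlapped between the 9 libraries with and the 9 without busulfan. No member lay apart at this level, as 0.513% of all genes did on the higher and 9.66% on the lower side.

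These 3 of 10 members stand beside 13.3% of all genes called higher and 24.8% called lower, and no member was called lower. Without BA50 replicate 1, Bid was called lower (log2 difference −0.69, limma, adjusted p = 0.00725). With the study's limits (adjusted p at most 0.001 and log2 change at least 1), 0 of 10 members were called in any busulfan comparison, beside 2.54% of genes in B0 against A0, 3.01% in BA10 against A10, 3.39% in BA50 against A50 and 3.61% in the averaged difference. The median log2 change was 0.18 over the members and 0.01 over all genes. Bax and Bcl2l2 stayed past the threshold when each library was left out in turn and under every other fit tried at that threshold. Mcl1 did not: its adjusted p was 0.0518 with quantile normalization, 0.0719 when each sample was scaled to the same sum, and between 0.0537 and 0.0688 without any 1 of 8 libraries (A0 replicate 1, A10 replicates 1 and 2, A50 replicate 2, B0 replicate 2, BA10 replicates 1 and 3, and BA50 replicate 3). Those scalings also moved the background, since 34.8% of the called genes were higher in the values as deposited, 50.3% after quantile normalization and 23.8% on the common-sum scale.

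Of the other guardians, Bcl2l1 differed by 0.09 (95% interval −0.04 to 0.23) and Bcl2 by 0.06 (−0.09 to 0.22). Bak1, the second effector, differed by 0.13 (−0.05 to 0.30). Among the BH3-only genes the log2 differences were 0.23 for Bbc3 (adjusted p = 0.12), 0.23 for Bcl2l11 (0.113), −0.03 for Bik (0.88) and −0.45 for Bid (0.218). Bbc3 and Bcl2l11 passed after quantile normalization (limma, adjusted p = 0.0397 and 0.0246). That scaling called 3514 of 15790 genes higher, against 2097 in the values as deposited.

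As summed levels, guardians made up most of the family's FPKM with or without the drug. The 4 guardians summed to 148.5 FPKM ± 8.44 (SD, n = 9) without busulfan and 173.2 ± 17.5 with it, the effectors to 68.1 ± 10.7 and 85.8 ± 11.8, and the 4 BH3-only genes to 16.5 ± 2.99 and 17.8 ± 4.04. In shares, guardians held 63.9% ± 3.63 and 62.6% ± 3.09, effectors 29.1% ± 3.18 and 31.0% ± 3.01, and BH3-only genes 7.05% ± 1.05 and 6.38% ± 1.06. The ratio of Bax to Bcl2 was 56.3 ± 11.8 without and 66.9 ± 9.36 with busulfan, and its ranges (42.0 to 76.5 and 55.6 to 81.9) overlapped. The ratio of Bax to Bcl2l1 was 1.24 ± 0.21 and 1.53 ± 0.19. These sums and ratios were not tested.

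The second question was whether AOS changed the family without busulfan. None of the 10 members passed in A10 against A0 or in A50 against A0, and neither did any other gene (0.0% called in each by limma). At an unadjusted p under 0.05, 2 members were lower in A10, beside 4.51% of genes higher and 10.7% lower, and 1 member was lower in A50, beside 9.85% higher and 5.8% lower. Bik, a BH3-only gene, had the largest difference that recurred. It was 3.73, 4.79 and 2.34 FPKM in A0, 0.92, 1.95 and 2.76 in A10, and 2.70, 1.28 and 1.46 in A50. The log2 differences were −0.70 (SE 0.27, limma, adjusted p = 0.322) and −0.71 (SE 0.27, adjusted p = 0.269), and the groups overlapped. A10 and A50 share the A0 controls, so these values are not independent.

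Bax in A10 differed from A0 by −0.34 (SE 0.16, limma, adjusted p = 0.326), and in A50 by −0.30 (SE 0.16, adjusted p = 0.356). Bcl2 was 1.01, 1.12 and 1.20 FPKM in A0, 1.00, 0.93 and 0.49 in A10, and 0.98, 0.79 and 0.71 in A50. It was the member that lay below every A0 value at both amounts, with log2 differences of −0.23 and −0.21 (SE 0.13 in each, limma, adjusted p = 0.354 and 0.392). In A10, 3 members lay apart and lower and 1 higher, beside 12.2% and 7.81% of all genes, and in A50 2 lower and 0 higher, beside 23.2% and 17.6%. Over the 10 members, the median was −0.23 in A10 and −0.22 in A50, against −0.06 over all genes in each. Weighting the libraries by their quality made calls here, under an estimation that stopped before it converged. This weighting called 2 members in A10, beside 3268 of 15790 genes, and 3 in A50, beside 5948.

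The third question was whether AOS changed the family after busulfan. No member was called in BA10 against B0, where 4 genes (0.0253%) were, nor in BA50 against B0, where 15 genes (0.095%) were. At an unadjusted p under 0.05, 0 members differed in BA10, beside 1.89% of genes higher and 3.17% lower, and 4 were lower in BA50, beside 12.7% higher and 11.6% lower. In the latter comparison same-numbered libraries deviated together, and with the replicate number as a block 4 genes were called in the fit of all groups and 0 in the fit of these 2 groups, with 0 members in each. The count of 15 genes moved with single libraries: without BA50 replicate 1 it was 1115 genes with 1 member (Bid), without A10 replicate 3 it was 142, without BA50 replicate 2 it was 0, without B0 replicate 1 it was 25, and it was 7 or 8 without A0 replicate 1, 2 or 3, A10 replicate 2, A50 replicate 1, 2 or 3, BA10 replicate 3 or BA50 replicate 3. Weights estimated gene by gene, added after seeing the data, called 1552 genes and 1 member, again Bid.

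Mcl1 in BA50 was 82.2, 69.5 and 99.0 FPKM, below all 3 B0 values. The log2 difference was −0.45 (SE 0.14, limma, unadjusted p = 0.00585, adjusted p = 0.112). Bcl2l11 was 7.15, 7.86 and 12.9 FPKM in B0 and 5.44, 5.91 and 6.45 in BA50, also without overlap, with a log2 difference of −0.53 (SE 0.19, limma, adjusted p = 0.134). Bbc3 was 3.83, 3.13 and 4.53 FPKM in BA50, again below B0, with −0.44 (SE 0.19, limma, adjusted p = 0.185). So 3 of 10 members lay apart and lower in BA50, where 13.5% of all genes did and 11.2% lay apart and higher. The median over the members was −0.27, against −0.04 over all genes.

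In BA10, Mcl1 was 100.1, 86.6 and 112.4 FPKM and differed from B0 by −0.19 (SE 0.14, limma, adjusted p = 0.749). Bik and Bid lay below every B0 value, where 7.75% of all genes lay apart and lower and 3.64% apart and higher, with log2 differences of −0.38 and −0.90 (SE 0.27 and 0.48, limma, adjusted p = 0.749 in each). Bcl2l1, which encodes Bcl-xL, had the highest log2 difference in BA50 (0.15, 95% interval −0.09 to 0.38), and Bcl2l11 in BA10 (0.12, −0.30 to 0.53).

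**Figure D3:**
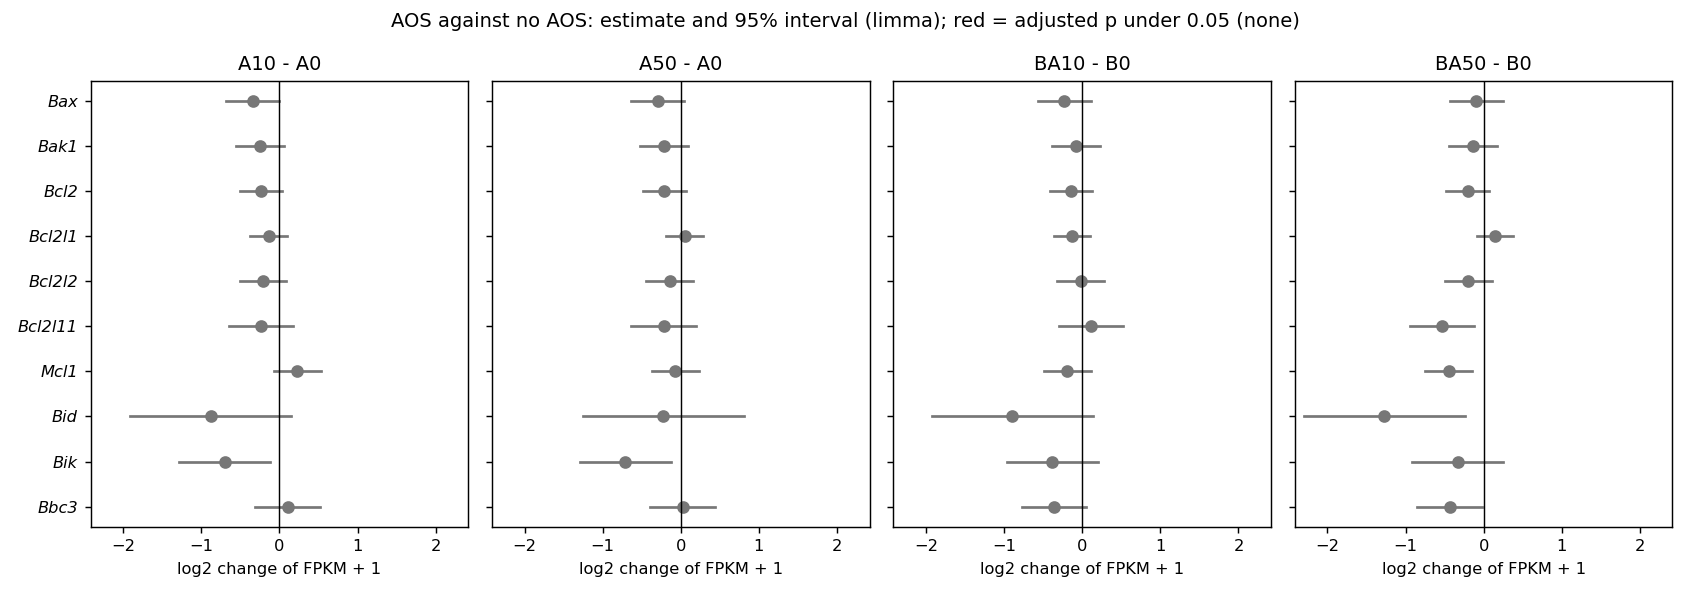
Log2 change of FPKM + 1 (x axis) of each member (y axis) for AOS against no AOS, without busulfan (left pair) and after it (right pair); points are estimates and lines 95% intervals. No member passed the test; the lowest estimate was Bid in BA50 against B0 (−1.27).

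Whether the AOS difference itself depended on busulfan was tested as an interaction, with 0 members and 0 genes called at either amount (0.0%, limma; at an unadjusted p under 0.05, 1.8% of genes higher and 2.17% lower at 10 μg/mL, 2.93% and 3.36% at 50 μg/mL). Mcl1 had the smallest unadjusted p among the members at both amounts (0.0506 and 0.074). Its AOS difference was lower after busulfan by 0.42 at 10 μg/mL (95% interval −0.84 to 0.00, adjusted p = 0.91) and by 0.38 at 50 μg/mL (−0.80 to 0.04, adjusted p = 0.837). The calls of Mcl1, Bcl2l2 and Bax in separate busulfan comparisons are therefore not shown to differ between AOS amounts.

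Bid, the BH3-only protein that links death receptors to mitochondria, had a pattern of its own among the members. It was 3.65, 6.02 and 4.30 FPKM in A0, 2.74, 1.12 and 2.49 in A10, and 4.45, 3.88 and 3.10 in A50. After busulfan it was 5.01, 4.32 and 3.48 in B0, 2.95, 2.38 and 0.66 in BA10, and 5.06, 0.33 and 0.26 in BA50. BA50 replicate 1 thus lay near the B0 values while BA50 replicates 2 and 3 were near 0. The log2 difference between BA50 and B0 was −1.27 (SE 0.48, limma, adjusted p = 0.143). Without BA50 replicate 1 it was −2.02 (adjusted p = 0.0365), and the difference from A50 was −1.88 (0.00105) in place of −1.14.

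The genes beside Bid were then read in the same libraries, a step chosen after these values were seen. Bid lies on chromosome 6 (GRCm38, 120891930 to 120916853, minus strand), and 6 genes of the table, Bid included, lie within 250 kb. Bcl2l13, the adjoining gene and itself a BCL2 family relative, was 0.84 FPKM in BA10 replicate 3 and 0.80 and 0.53 in BA50 replicates 2 and 3, against 2.84 or more in the other 15 libraries. Slc25a18, a mitochondrial glutamate carrier gene, was 0.87, 0.30 and 0.06 FPKM there and 1.39 or more elsewhere. Cecr2, a chromatin factor gene, was 0.41, 0.35 and 0.13, with 0.59 or more elsewhere. In 4 of the 6 genes, then, the 3 lowest values fell in the libraries where Bid was under 1 FPKM. Bid is 1 of these 4 by the choice of libraries, and no share of all genes with this pattern is given. Atp6v1e1 was 51.4, 73.2 and 50.4 FPKM in these libraries, inside its range elsewhere. Mical3 was 11.0, 26.4 and 13.3, and its value in BA50 replicate 2 was above those of the other 15 libraries, which reached 19.6 FPKM. Bid and Bcl2l13 run on opposite strands and share 628 exonic bases (17.7% of those of Bid), and since no source states that the counting used strand, their reads in that stretch cannot be told apart.

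**Figure D4:**
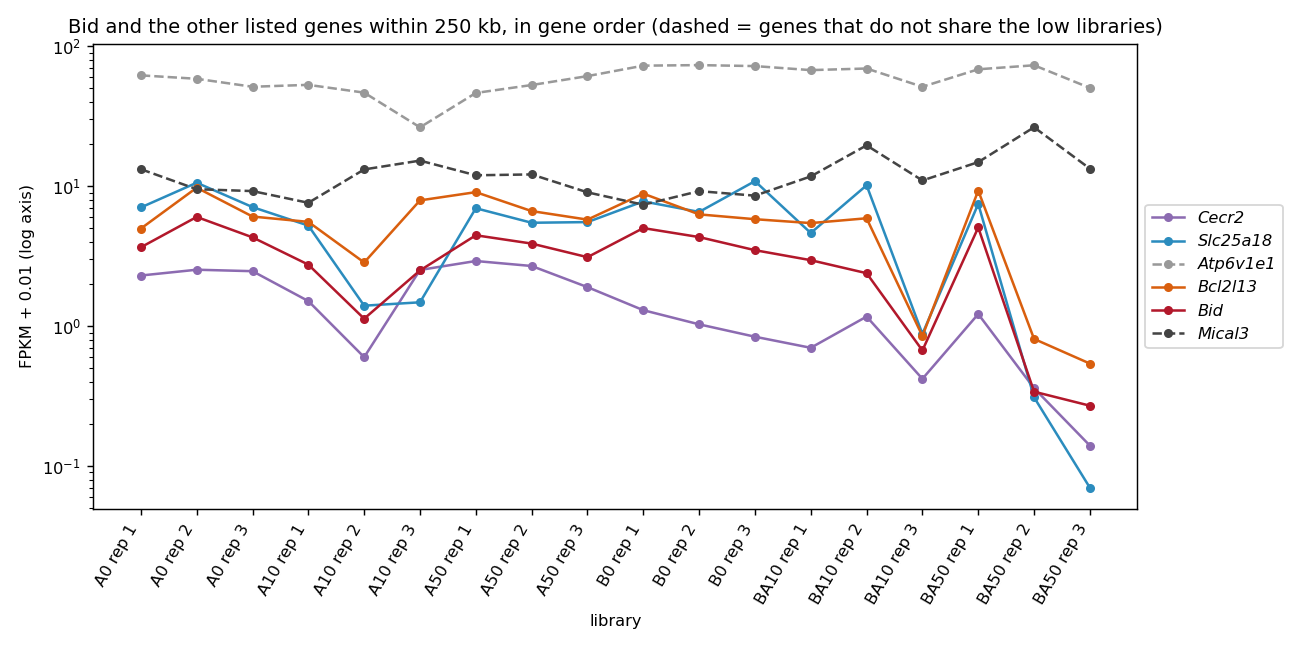
FPKM + 0.01 on a log axis (y) of Bid and the other listed genes within 250 kb, in each library (x axis); each line is 1 gene. Bid, Bcl2l13, Slc25a18 and Cecr2 have their 3 lowest values in BA10 replicate 3 and BA50 replicates 2 and 3, while Atp6v1e1 and Mical3 do not. These libraries were chosen because Bid was under 1 FPKM in them.

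Other members overlap neighbours too. Bak1 shares 614 exonic bases (25.5%) with Ggnbp1 on the other strand, which was at 74.4 to 305.2 FPKM, Bcl2 shares 558 bases (6.09%) with an antisense gene, and Bax and Bcl2l2 share 192 (12.2%) and 594 bases (13.3%) with same-strand gene models. The values of these members are uncertain by the reads so shared.

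For each member, the gene most like it over the 18 samples was sought among 10367 genes by Pearson's r of log2(FPKM + 1), as a description over samples that share groups. Bax was most like Etfb (r = 0.97), Bcl2 like 1810030O07Rik (0.969), Bcl2l2 like Stat3 (0.952), Bid like its neighbour Bcl2l13 (0.951), Mcl1 like Tspan12 (0.947) and Bak1 like Tgfbrap1 (0.938). Lower values were found for Bbc3 with Myoz1 (0.905), Bcl2l11 with Mef2a (0.886), Bcl2l1 with Ddx54 (0.82) and Bik with Phgdh (0.785).

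The other BCL2 family genes moved in both directions in the averaged busulfan difference. Of 13 tested (15 in the list, with Hrk and Bcl2l10 too low), 3 fell and 2 rose, against 24.8% and 13.3% of all genes. Bcl2l12 fell from 12.2 FPKM ± 1.31 (SD, n = 9) to 4.81 ± 0.84, a log2 change of −1.19 (SE 0.08, limma, adjusted p = 9.29e-09), with no overlap between the groups. Pmaip1, which encodes the BH3-only protein Noxa, fell from 6.11 FPKM ± 0.71 (SD, n = 9) to 2.94 ± 1.19 (log2 change −0.91, limma, adjusted p = 5.24e-05). Bad, a BH3-only gene controlled by phosphorylation of its protein, fell from 35.3 FPKM ± 4.72 to 24.9 ± 2.31 (log2 change −0.48, limma, adjusted p = 1.57e-05). Bcl2l14 rose by 0.48 on the log2 scale (limma, adjusted p = 0.0473) and Bok, an effector-like gene, by 0.38 (0.0274). Bnip3, a hypoxia-inducible relative, rose in B0 against A0 (0.87, limma, adjusted p = 0.0419) and differed by 0.12 in the averaged comparison. Bcl2a1a, Bcl2a1b and Bcl2a1d are near-identical copies, so their values are uncertain.

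The apoptosome and caspase list also holds genes of mitochondrial proteins, such as Vdac1. Of its 19 genes, 6 fell and 4 rose in the averaged busulfan difference, beside 24.8% and 13.3% of all genes. Cyct, the testis form of cytochrome c, fell from 67.2 FPKM ± 19.2 (SD, n = 9) to 14.8 ± 5.04 (log2 change −2.13, limma, adjusted p = 1.61e-07). Diablo, whose protein blocks caspase inhibitors, fell by 1.47 on the log2 scale (limma, adjusted p = 1.36e-10), and the mitotic gene Birc5 by 0.85 (4.76e-06). Aifm1, encoding a mitochondrial flavoprotein, rose by 0.48 (limma, adjusted p = 0.00814). The outer membrane channel gene Vdac1 rose by 0.24 (limma, adjusted p = 0.00761) and was also called in B0 against A0 (0.40, 0.0245). Casp2 fell in BA50 against A50 (−0.41, limma, adjusted p = 0.0202). Somatic cytochrome c (Cycs) differed by 0.13 (95% interval −0.05 to 0.30), a gene outside the naming rule that was chosen after its value was seen.

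In the death receptor list, 4 of 8 genes tested rose and none fell in the same comparison, where 13.3% of all genes were called higher and 24.8% lower. These were Tnfrsf1a, a receptor for tumor necrosis factor (log2 change 0.46, limma, adjusted p = 0.00546), Tnfrsf10b, the receptor for TRAIL (0.37, 0.00439), Tradd (0.27, 0.0294) and Ripk1 (0.26, 0.033). Among p53 and its targets, 10 of 18 rose and Mdm4 fell (−0.27, 0.00277), against the same shares of all genes. The largest rises were those of Phlda3, from 13.8 FPKM ± 2.91 (SD, n = 9) to 25.7 ± 7.22 (log2 change 0.83, limma, adjusted p = 0.000302), and of Eda2r (0.74, 2.4e-05), Ccng1 (0.66, 1.13e-05) and Trp53inp1 (0.53, 0.00631). Zmat3 was also called in B0 against A0 (0.63, limma, adjusted p = 0.00621) and Gadd45a in BA10 against A10 (0.58, 0.00626). Tnfrsf10b stands in both the death receptor and the p53 list and is counted in each. Bax, Bbc3 and Pmaip1, 3 among the BCL2 family genes known to be induced by p53, had log2 differences of 0.40, 0.23 and −0.91. In every AOS comparison and interaction, no gene of these 4 lists was called.

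**Figure D5:**
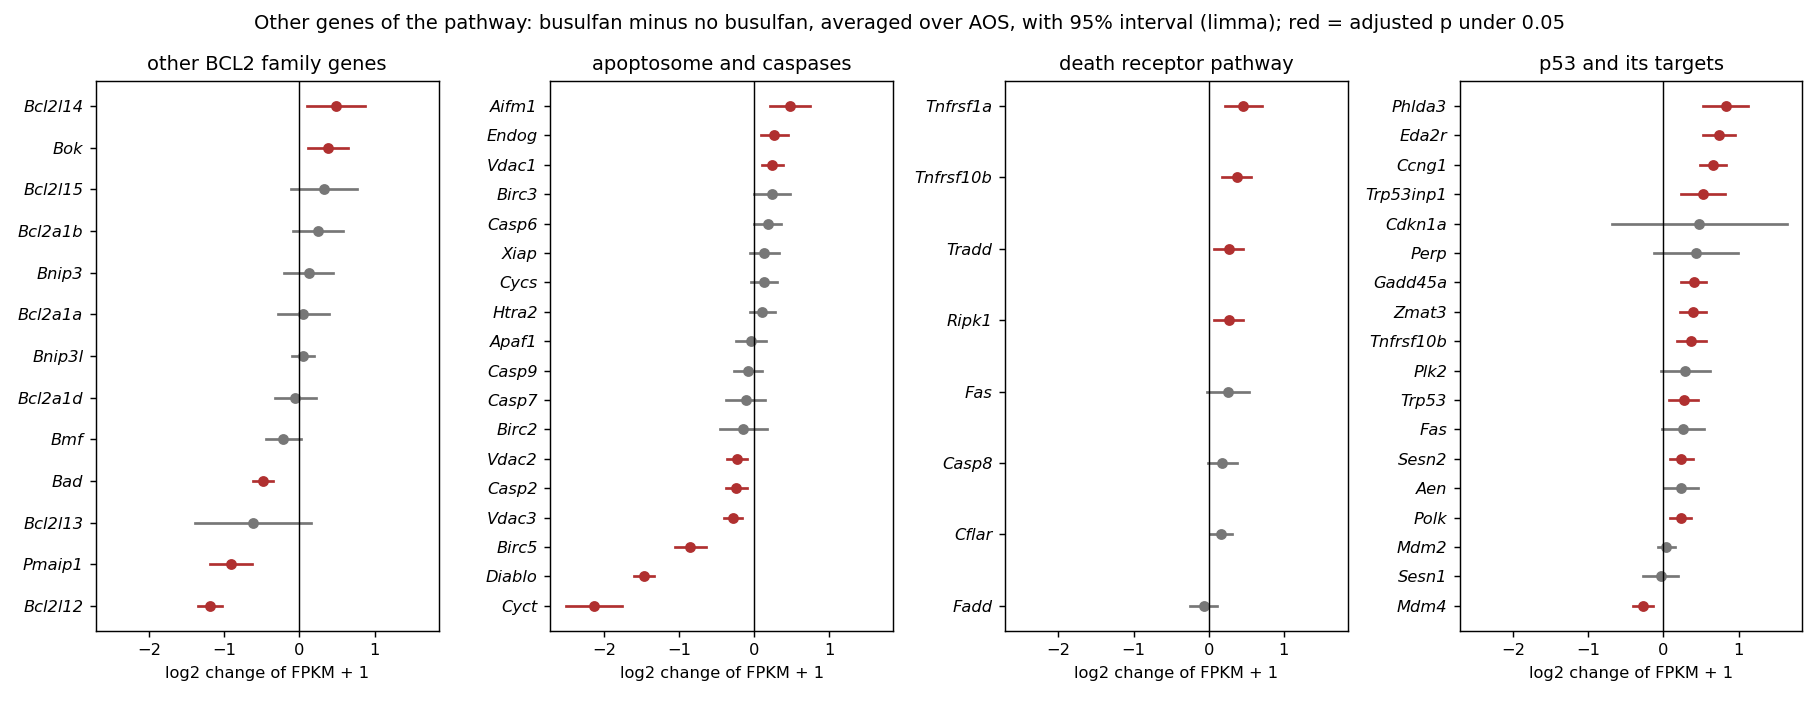
Log2 change of FPKM + 1 (x axis) for busulfan against no busulfan, averaged over AOS, of other genes of the pathway (y axis) in 4 lists; points are estimates, lines 95% intervals, red marks adjusted p under 0.05. Cyct (−2.13) and Diablo (−1.47) lie lowest, and Phlda3 (0.83) highest.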

How the data were processed

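RNA-seq of 18 cultured testis libraries (6 groups of 3) was re-analysed. The authors selected poly(A) RNA, ran the libraries on a HiSeq machine and deposited 1 FPKM value per gene and sample, with 2 decimals. The submitters' processing notes name HISAT, Bowtie2, RSEM and GRCm38.p5, whereas the supplementary methods name SOAPaligner and RPKM, so the route to the values is not settled. Strandedness is not given in the sources used here. Depth is unknown, so no counting interval or detection limit was computed; the FPKM of a sample summed to 463969 to 511274.

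Groups came from the sample labels. Gene numbers were matched to symbols through RefSeq (GRCm38.p6; 20656 of 20811 matched), and gene positions and overlaps came from GENCODE. Tests used limma 3.58.1 under R 4.3.3 (lmFit, eBayes with trend) on log2(FPKM + 1), a scale that understates changes of low genes, with 1 coefficient per group, all 18 samples, 12 residual degrees of freedom and 2.56 prior ones. The 15790 genes that reached 1 FPKM in 3 or more samples were tested two-sided with Benjamini-Hochberg adjustment over all of them, and called at an adjusted p under 0.05. Exact permutation tests of 3 against 3 samples were not used, since their smallest p is 0.1. The fit was tested on simulated data. Python 3.11.15 with pandas 2.3.3, NumPy 2.4.6 and matplotlib 3.10.9 served for tables and plots.

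The members, gene lists, tests and the rule for named genes (all 10 members, up to 4 genes per other list by size of change among those called in the averaged busulfan difference and up to 4 called in another comparison, and the gene most like each member) were chosen with earlier results of these data known. The labels do not say that replicate numbers mark a shared repeat. Deviations of same-numbered samples correlated above 0.1 in all 3 pairs only for BA50 and B0 (0.56, 0.42 and 0.14), a pairing taken from the data, and the block is given beside that comparison. Each choice was varied in turn: quantile normalization, a common sum per sample, sample weights, no trend, no filter or one at a mean of 5 FPKM, a pseudocount of 0.1, the replicate number as a block, fitting just the groups of a comparison, the study's limits (adjusted p at most 0.001 and log2 change at least 1) and leaving out each sample. The values of 1 gene of the apoptosome and caspase list are not reported here, although it is in that list's counts.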

Additional observations from a re-analysis of the deposited data

How the results depend on the processing

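Of 2760 single-gene values under alternatives, 2695 kept their side of the threshold, 29 lost and 36 gained a call, and none reversed among called values. Most of these values belonged to members and comparisons not called to begin with. The share kept therefore does not measure how stable the calls were. In 100 values the sign changed, with neither value past the threshold. Groups of 3 libraries and unknown depth limit what can be seen, and the cause of the changes was not tested. With the study's limits 0 members were called in any comparison, and 401 genes in B0 against A0, 476 in BA10 against A10, 536 in BA50 against A50, 570 in the averaged difference and 0 in BA10 or BA50 against B0. In B0 against A0, 2 members were called with quantile normalization, beside 479 genes higher and 1502 lower. In BA10 against A10, 2 were called with quantile normalization (1077 genes higher, 2234 lower). With a mean of at least 5 FPKM, 2 were also called there (574 of 10679 genes higher, 1754 lower). On the common-sum scale or when only the groups compared were fitted (1123 genes), 0 were called there. In BA50 against A50, 0 were called with the replicate block, quantile normalization, the common-sum scale or only the groups compared.

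The default estimation of sample weights stopped before convergence, and weights estimated gene by gene were added after seeing this and its calls. Of 15790 genes, the default called 4078, 6734, 8376 and 9717 in the busulfan comparisons (B0, BA10, BA50, averaged), with 2, 3, 4 and 6 of 10 members. In A10, A50, BA10 and BA50 against no AOS it called 3268, 5948, 14 and 3867 genes, with 2, 3, 0 and 2 members. In the interactions it called 13 and 43 genes. Gene by gene, 3557 genes and 2 members were called in B0 against A0, 6094 genes and 4 members in BA50 against A50, 11 genes in A10, 4322 genes and 1 member in A50, 14 genes in BA10, 1552 genes and 1 member in BA50, and 6 in the interaction at 50 μg/mL.

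In the AOS comparisons, genes called were 1 in A10 with a pseudocount of 0.1 or the common sum, and in A50 1 with that pseudocount, the common sum or only the groups compared and 3 with no filter. For BA10 against B0 they were 1 with the replicate block, 2 with the pseudocount, 10 with no filter and 0 with only the groups compared. For BA50 against B0 they were 4 with the replicate block, 6 with the pseudocount or a mean of at least 5 FPKM, 37 with no filter, 9 with the common sum and 0 with only the groups compared, blocked or not. The interactions had 1 with the pseudocount, and 1 at 50 μg/mL with no filter. The block changed no call of a member other than that of Bax in BA50 against A50 (adjusted p = 0.0552), and 6 of 18 samples correlated best with samples of their own number.

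With each library left out, members called ranged from 0 to 1 in B0 against A0, 0 to 3 in BA10 against A10, 0 to 1 in BA50 against A50, 2 to 4 in the averaged difference and 0 to 1 in BA50 against B0. Genes called ranged from 1450 to 2717, 2069 to 3714, 2287 to 4098 and 5308 to 6408 in the busulfan comparisons, they stayed at 0 for A10 against A0, and ranged from 0 to 3 for A50 against A0, 0 to 16 for BA10 against B0 and 0 to 1115 for BA50 against B0 (1115 without BA50 replicate 1, 142 without A10 replicate 3) and 0 to 1 for each interaction.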
